A study of Homo sapiens with 3 samples.

Results

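The genes examined were the 4 receptors of the ErbB family (EGFR, ERBB2, ERBB3 and ERBB4) and 6 ligands of the epidermal growth factor family (AREG, EREG, TGFA, HBEGF, BTC and EPGN). These 10 genes were chosen by name from the 60504 genes of an RNA-Seq table, and all 10 were found in it by their Ensembl identifiers. The table holds 3 libraries of DLD1, an established human colorectal cancer cell line: 1 of DLD1 control cells with wild-type BEX2 (brain-expressed X-linked 2), and 1 of each of 2 BEX2-/- DLD1 clones made with CRISPR/Cas9, here called clone 1 and clone 2. No treatment was named for any library, and each knockout line was a single clone, so differences between clones and an effect of the knockout cannot be told apart within 1 clone. BEX2 had 0 reads in each library (3 reads would have been 0.0538 FPKM in the control), so the level of its mRNA could not check the labels.

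The ligands are made as membrane-bound precursors and are released by proteases of the ADAM family. Amphiregulin (AREG), epiregulin (EREG), transforming growth factor alpha (TGFA), heparin-binding EGF (HBEGF), betacellulin (BTC) and epigen (EPGN) all bind EGFR, and some of them also bind ERBB4. Ligand binding lets the receptors pair and phosphorylate each other; ERBB2 has no known ligand of its own, and ERBB3 has little kinase activity and signals through its partners. In the intestinal epithelium this pathway is known for driving proliferation and repair, and AREG and EREG are commonly measured in colorectal tumors.

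Values were deposited as FPKM, the fragments of a gene divided by the length of its exons and by the size of the library, so that levels can be compared between genes. Most low values were whole multiples of 1 read, which gave depths of 47458852 reads in the control, 35593990 in clone 1 and 47722381 in clone 2. Whole reads were recovered for 8 of the 10 genes and not for EGFR and ERBB3. Of the 8 colon epithelium markers examined, 8 were detected in every library, with summed levels of 1635 FPKM in the control and 1735 and 1884 FPKM in the clones, but villin (VIL1) stood at 3.61 FPKM in the control, 13.2 FPKM in clone 1 and 0.221 FPKM in clone 2. The summed level of 6 fibroblast markers was 0.136 FPKM in the control and 0.129 to 0.634 FPKM in the clones, with COL3A1 and LUM at 0 throughout. Of these markers, PDGFRB was at 0.0886, 0.602 and 0.0411 FPKM in the control, clone 1 and clone 2 (30, 153 and 14 reads). The summed level of 5 leukocyte markers was 0.803 FPKM in the control and 0.749 to 0.811 FPKM in the clones, with PTPRC and LYZ at 0 throughout. Most of that sum was CD14, at 0.793, 0.760 and 0.700 FPKM in the control, clone 1 and clone 2.

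AREG and EREG are the ligands whose levels differed at least 2-fold between libraries in FPKM + 1, and the letters before their annotated starts are shown here so that the genes can be placed. The sequences are the 250 bases upstream of each start, from RefSeq on GRCh38.p14, where 9 of the 10 genes have an entry; the submitters' processing notes name hg19, so these positions belong to the reference and not to the deposited table. The window of AREG is chr4:74444886-74445135 and that of EREG chr4:74364895-74365144, both on the plus strand and ending just before the start of the gene. Capitals mark the motifs searched for on both strands: AP-1 (TGANTCA), CRE, the cyclic AMP response element (TGACGTCA), SP1 (GGGCGG), the TATA box (TATAAA) and TEAD (GGAATG).
AREG: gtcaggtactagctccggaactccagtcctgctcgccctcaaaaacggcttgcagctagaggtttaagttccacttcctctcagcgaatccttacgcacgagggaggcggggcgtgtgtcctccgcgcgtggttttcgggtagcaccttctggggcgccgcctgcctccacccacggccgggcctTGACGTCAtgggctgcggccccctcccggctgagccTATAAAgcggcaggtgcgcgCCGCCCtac
EREG: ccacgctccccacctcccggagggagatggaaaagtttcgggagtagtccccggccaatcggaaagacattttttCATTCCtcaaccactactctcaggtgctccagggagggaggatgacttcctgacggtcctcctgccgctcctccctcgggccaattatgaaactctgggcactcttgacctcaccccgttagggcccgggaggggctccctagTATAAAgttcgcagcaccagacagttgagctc

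Both windows hold a TATA box, which begins 29 bases before the start of AREG and 32 bases before that of EREG. Of 35116 annotated promoters of the same length, 10.7% hold those letters, and of the other ligands EPGN does. Among the ligand windows searched, only that of AREG holds the CRE letters, 65 bases before the start, as do 1.65% of all promoters. The SP1 letters, found in 42.6% of promoters, occur on the opposite strand 9 bases before the start of AREG and in the windows of TGFA (at the first of its listed starts) and HBEGF. The TEAD letters, found in 11.9% of promoters, occur on the opposite strand 175 bases before the start of EREG. No AP-1 letters, found in 6.57% of promoters, were present in any of the ligand windows searched. No 2 of the marked motifs overlap. A match describes letters, and no binding was measured here.

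AREG (ENSG00000109321) was the most abundant ligand in every library, with 97.0 FPKM in the control, 73.4 FPKM in clone 1 and 259 FPKM in clone 2. Clone 2 was thus the high library and clone 1 the low one, with the control between them. The underlying reads numbered 7585, 4307 and 20369. The ratio of FPKM between clone 2 and clone 1 was 3.53, with an exact 95% interval of 3.41 to 3.65, which covers counting error only. Against the control, the ratio was 2.67 (2.60 to 2.74) in clone 2 and 0.757 (0.729 to 0.786) in clone 1. The level of AREG exceeded that of 97.4% of expressed genes in the control, 96.6% in clone 1 and 99.1% in clone 2. The hg19 assembly carries a near-identical copy of AREG named AREGB. Whether reads were shared between such copies was not tested.

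EREG (ENSG00000124882) followed the same order of libraries. It was at 62.3 FPKM in DLD1 control cells (16912 reads), 41.0 FPKM in clone 1 (8350 reads) and 110 FPKM in clone 2 (29882 reads). The ratio of clone 2 to clone 1 was 2.67 (2.61 to 2.74), that of clone 2 to the control was 1.76 (1.72 to 1.79), and that of clone 1 to the control was 0.658 (0.641 to 0.676). AREG exceeded EREG 1.56-fold in the control, 1.79-fold in clone 1 and 2.36-fold in clone 2. Together both genes made up 91.7% of the summed FPKM of the 6 ligands in the control, 88.2% in clone 1 and 95.3% in clone 2. That sum was 174 FPKM in the control, 130 FPKM in clone 1 and 387 FPKM in clone 2.

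The 4 other ligands were present at lower levels. TGFA (ENSG00000163235), a high-affinity ligand of EGFR, was at 9.68 FPKM in the control, 9.31 FPKM in clone 1 and 12.0 FPKM in clone 2. The library order was that of AREG, but the ratio of clone 1 to the control (0.961, interval 0.902 to 1.02) was within counting error, and with scaling to TPM, which sets each library to the same sum, the log2 ratio of clone 1 changed its sign to 0.0043. HBEGF (ENSG00000113070), which binds heparan sulfate as well as EGFR and ERBB4, was at 2.12, 1.73 and 2.20 FPKM in the control, clone 1 and clone 2. Here the ratio of clone 2 to the control (1.04, interval 0.886 to 1.22) was within counting error, while that of clone 1 was 0.818 (0.678 to 0.986). BTC (ENSG00000174808), a ligand of EGFR and ERBB4, was at 2.55 FPKM in the control, 4.21 FPKM in clone 1 and 3.77 FPKM in clone 2. Both clones stood above the control, by 1.65-fold (1.43 to 1.91) and 1.48-fold (1.28 to 1.70), and the ratio between the clones, 0.894 (0.784 to 1.02), was within counting error. EPGN (ENSG00000182585) had 2 reads in the control and 3 in each clone, and no difference was detectable at this depth: the ratio to the control was 2 in clone 1, with an interval of 0.229 to 23.9, and 1.49 in clone 2, with an interval of 0.171 to 17.9.

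Among the detected receptors, ERBB2 (ENSG00000141736) varied least across the 3 libraries. It was at 14.1 FPKM in the control, 15.4 FPKM in clone 1 and 15.4 FPKM in clone 2 (6897, 5640 and 7577 reads), with a ratio between the clones of 1.00 (0.968 to 1.04). ERBB3 (ENSG00000065361), the partner receptor with little kinase activity, was at 10.2 FPKM in the control, 19.2 FPKM in clone 1 and 10.8 FPKM in clone 2. Clone 1 was the high library for ERBB3, and it was the only library in which ERBB3 exceeded ERBB2. EGFR (ENSG00000146648), the receptor that the 6 ligands share, was at 3.23 FPKM in the control, 3.42 FPKM in clone 1 and 6.06 FPKM in clone 2. Clone 2 was the high library for EGFR, as for AREG and EREG. ERBB4 (ENSG00000178568) was listed at 0 in all 3 libraries, and 0 reads allow a level of up to 0.00486 FPKM in the control, 0.00648 FPKM in clone 1 and 0.00483 FPKM in clone 2.

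**Figure D1:**
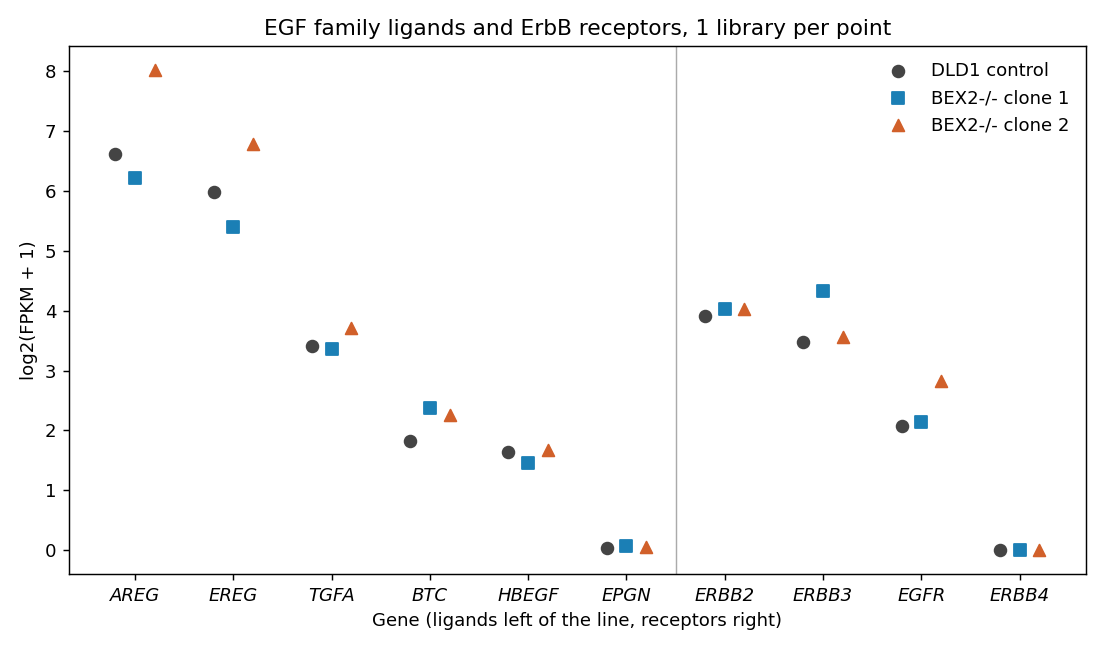
Levels of the 6 ligands (left of the line) and 4 receptors (right) as log2(FPKM + 1), with 1 point per library and no error bars because each library is a single measurement. Clone 2 is highest for AREG, EREG and EGFR, clone 1 is highest for ERBB3, and EPGN and ERBB4 lie at or near 0 in all 3 libraries.

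Receptor mRNA was spread more evenly than ligand mRNA. ERBB2 made up 51.2% of the summed FPKM of the receptors in the control, 40.4% in clone 1 and 47.8% in clone 2. ERBB3 made up 37.0%, 50.6% and 33.4%, and EGFR 11.8%, 9.00% and 18.8%, in the same order of libraries. The order of the ligands by level was AREG, EREG, TGFA, BTC, HBEGF and EPGN in each library. Over the 3 libraries the range of AREG (73.4 to 259 FPKM) overlapped that of EREG (41.0 to 110 FPKM), although AREG was the higher of the pair within each library. The ranges of all other neighbours in that order did not overlap, those of BTC and HBEGF being 2.55 to 4.21 and 1.73 to 2.20 FPKM. Among the receptors the ranges of ERBB2 and ERBB3 overlapped, and those of ERBB3 and EGFR (10.2 to 19.2 and 3.23 to 6.06 FPKM) did not.

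To compare the libraries over all genes, log2 ratios were taken of FPKM + 1 for the 11675 genes with a mean of at least 1 FPKM, a scale that understates the change of low genes. Of the 10 genes, 8 passed this filter, and ERBB4 and EPGN did not. Each side of these comparisons is 1 library, so they have no replicate check, and clone 1 and clone 2 are set against the same control library. In clone 1, 0 of the 10 genes were at least 2-fold away from the control, a distance that 2.02% of all genes passing the filter reached. ERBB3 was nearest, with a log2 ratio of 0.86, followed by EREG at -0.59 and BTC at 0.55. In clone 2, AREG was past 2-fold, with a log2 ratio of 1.41, and 2.06% of all genes were past this distance. EREG followed at 0.80 and EGFR at 0.74. None of the 10 genes was at least 2-fold away in the same direction in both clones, as were 0.325% of all genes. Between the clones, AREG (log2 ratio 1.80) and EREG (1.39) were at least 2-fold higher in clone 2 than in clone 1, and 4.19% of all genes differed at least 2-fold in either direction. ERBB3 was lower in clone 2 than in clone 1 by a log2 ratio of -0.78, and EGFR higher by 0.68, both short of 2-fold. The median log2 ratio of the 8 genes was 0.0058 in clone 1, 0.36 in clone 2 and 0.28 between clone 2 and clone 1, beside 0.037, -0.013 and -0.054 over all genes.

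**Figure D2:**
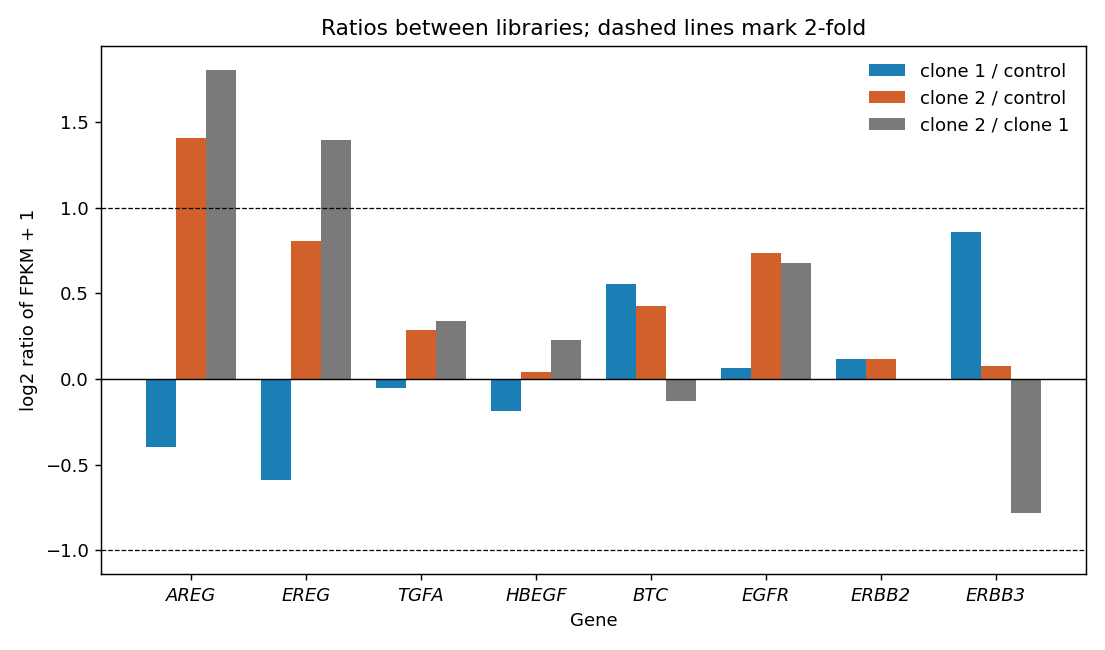
Bars give log2 ratios of FPKM + 1 for the 8 genes that passed the filter, between clone 1 and control, clone 2 and control, and clone 2 and clone 1, each a ratio of 2 libraries. AREG passes the dashed 2-fold lines in clone 2 against the control (1.41) and between the clones (1.80), and EREG passes them between the clones (1.39).

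The 8 genes fell into 2 kinds of order. AREG, EREG, TGFA and HBEGF were below the control in clone 1 and above it in clone 2, as were 16.1% of all genes, with the limits of counting error and scaling given above for TGFA and HBEGF. BTC, EGFR, ERBB2 and ERBB3 were above the control in both clones, as were 32.4% of all genes. The ratio was small for EGFR in clone 1 (log2 ratio 0.063) and for ERBB3 in clone 2 (0.075). Reads were not recovered for EGFR and ERBB3, so counting error could not be set beside these ratios. For AREG and EREG both ratios to the control lay outside counting error, in opposite directions. Of the 8 epithelial markers, 3 were higher in clone 2 than in clone 1 (KRT18, KRT8 and KRT19, with log2 ratios of 0.54, 0.26 and 0.16) and 5 were lower. Between the clones, 4.19% of all genes were past 2-fold. The 2 markers past 2-fold were both lower in clone 2: VIL1 at -3.54 and CDH17, a cadherin of intestinal epithelium, at -1.39. The part of such differences between the clones in the levels of AREG and EREG was not tested, and in bulk RNA fewer cells of a type and less RNA per cell cannot be told apart.

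**Figure D3:**
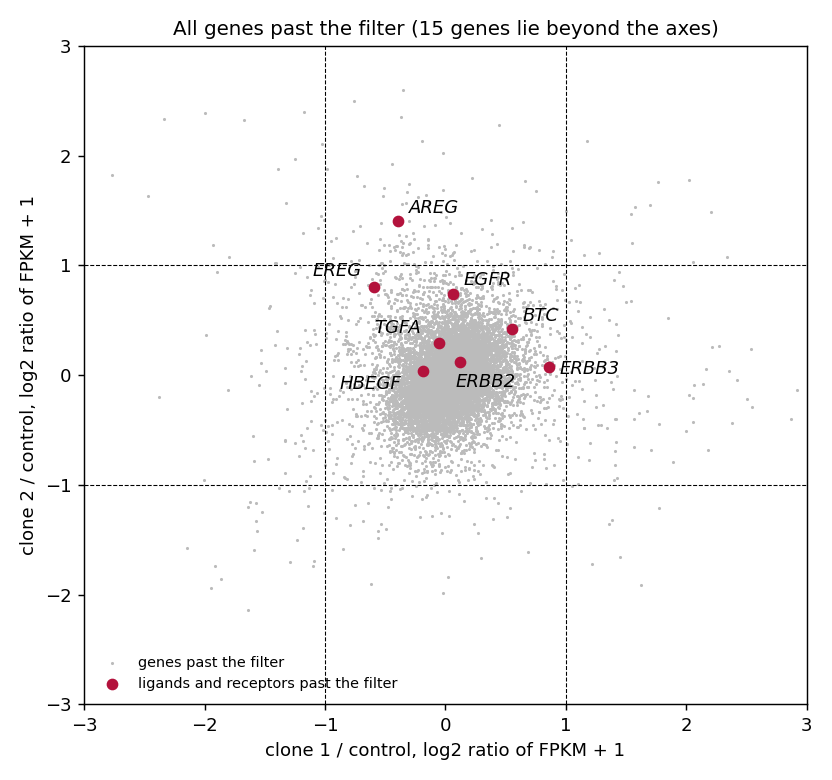
Log2 ratios of FPKM + 1 of clone 1 to control (horizontal axis) and clone 2 to control (vertical axis), with 1 gray point for each gene that passed the filter, 15 of them beyond the axes, and the 8 ligands and receptors in red. AREG (-0.40, 1.41) and EREG (-0.59, 0.80) lie up and to the left, whereas ERBB3 (0.86, 0.08) lies to the right.

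The mean of the clones was also compared with the control across all genes with limma. The only replicate spread in this fit is the difference between the 2 clones, which limma moderates toward the trend over genes of like expression (a median of 2.55 prior degrees of freedom beside 1 residual per gene), and the control is assumed to vary in the same way. The mean of the clones for AREG was 166 ± 131 FPKM (SD, n = 2) and that for EREG was 75.3 ± 48.4 FPKM (SD, n = 2), so that both control values lay within 1 SD of the mean. The same held for EGFR (4.74 ± 1.87 FPKM), ERBB3 (15.0 ± 5.98 FPKM), TGFA (10.7 ± 1.94 FPKM) and HBEGF (1.97 ± 0.332 FPKM). The control values of BTC and ERBB2 lay further from the means of the clones, 3.99 ± 0.315 FPKM and 15.4 ± 0.0218 FPKM. In the limma fit the difference between the clones and the control was 0.51 ± 0.84 (SE) on the log2 scale for AREG, 0.11 ± 0.66 for EREG, 0.47 ± 0.40 for ERBB3 and 0.40 ± 0.36 for EGFR. BTC had the smallest unadjusted p-value of the 8 genes in limma, 0.0791, with a difference of 0.49 ± 0.20 and a higher level in 2 of 2 clones. After Benjamini-Hochberg adjustment over all 11675 genes, the limma p-value of each of the 8 genes was 1.00, and 0% of all genes were called at an adjusted p-value of 0.05. The smallest adjusted p-value of any gene in limma was 0.9999, so these values do not set the 8 genes apart. At an unadjusted p-value of 0.05, limma called 139 genes (1.19%), none of them among the 10. For a single gene, an exact permutation of 1 control and 2 clone libraries cannot give a p-value below 0.333.

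EPGN, EREG, AREG and BTC lie next to each other on chromosome 4 in this order, with 0 other protein-coding genes between them in the RefSeq annotation. The 5 protein-coding genes on either side were therefore examined, of which 7 of 10 passed the filter. On the side of EPGN, the adjoining gene MTHFD2L, an enzyme of mitochondrial folate metabolism, was at 1.36 FPKM in the control, 1.13 FPKM in clone 1 and 1.68 FPKM in clone 2. Beyond it lie the chemokine genes CXCL2, CXCL3 and CXCL5, which attract neutrophils. The outermost gene examined on that side, PPBP, is also a chemokine gene. It was at 0 FPKM in the control and clone 1 and 0.0586 FPKM in clone 2, and did not pass the filter. CXCL5 was at 165 FPKM in the control, 40.7 FPKM in clone 1 and 869 FPKM in the clone 2 library. CXCL2, CXCL3 and CXCL5 followed the library order of AREG and EREG, with larger log2 ratios between clone 2 and clone 1 of 4.60, 4.09 and 4.38. They were the 3 of 7 flanking genes at least 2-fold higher in clone 2 than in clone 1, and 0 were at least 2-fold lower. Of all 11675 genes that passed the filter, 293 were at least 2-fold higher and 196 lower. On the side of BTC, PARM1 was at 19.8, 24.4 and 23.2 FPKM in the control, clone 1 and clone 2, and the log2 ratios between the clones of PARM1, RCHY1 and THAP6 were between -0.31 and -0.03. Within the group of ligands itself, EREG and AREG differed at least 2-fold between the clones, whereas BTC, next to AREG, had a log2 ratio of -0.13.

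The genes whose pair of log2 ratios to the control was closest to that of AREG were an unnamed gene, ENSG00000279806, at a distance of 0.098, PLEKHM1 at 0.13 and FAM171B at 0.14. Those closest to EREG were TRAF3 at 0.0077, PERP at 0.055 and the small RNA pseudogene RNU6-1053P at 0.056. TRAF3, a signaling adaptor, was at 5.54 FPKM in the control, 3.36 FPKM in clone 1 and 10.4 FPKM in clone 2. PERP, a component of desmosomes, was at 348, 223 and 616 FPKM. This measure of likeness rests on 3 libraries and was computed over all genes that passed the filter.

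The other ligands of the family, EGF and the neuregulins NRG1 to NRG4, were close to absent. Of these 5 genes 0 passed the filter, and their summed level was 0.156 FPKM in the control, 0.136 FPKM in clone 1 and 0.0752 FPKM in clone 2. NRG4 was the most abundant at 0.109, 0.0558 and 0.0541 FPKM (26, 10 and 13 reads). EGF had 11, 8 and 1 reads. Beside them, the least abundant of the 5 expressed ligands, HBEGF, was at 1.73 FPKM or more in each library.

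Genes for the release of the ligands were all expressed, and 1 of 5 was past 2-fold. Of all genes, 2.06% were past this distance between clone 2 and the control and 4.19% between the clones. RHBDF2 encodes iRhom2, a pseudoprotease that carries the sheddase ADAM17 to the cell surface. It was at 4.52 FPKM in the control, 4.45 FPKM in clone 1 and 10.4 FPKM in clone 2 (1484, 1097 and 3426 reads). The log2 ratio was 1.04 between clone 2 and the control and 1.06 between the clones, so that clone 2 was the high library here as for AREG, EREG and EGFR. The protease gene ADAM9 was at 19.9, 25.0 and 23.7 FPKM and RHBDF1, which encodes the related iRhom1, at 8.85, 10.2 and 11.4 FPKM in the control, clone 1 and clone 2. The median log2 ratio of the 5 genes was 0.18 in clone 1 and 0.33 in clone 2.

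Genes that carry the signal inward from the receptors were also examined. Of 11 adaptors and effectors, 10 passed the filter and 0 were past 2-fold in any of the comparisons, with median log2 ratios of 0.19 in clone 1, 0.19 in clone 2 and -0.072 between the clones. Over all genes, 2.02% were past 2-fold in clone 1, 2.06% in clone 2 and 4.19% between the clones. The adaptor GRB2 was at 20.9, 23.3 and 19.5 FPKM and the adaptor SHC1 at 10.9, 12.0 and 16.3 FPKM in the control, clone 1 and clone 2. Of 9 genes that restrain the receptors, 7 passed the filter and 0 were past 2-fold. ERRFI1 (MIG6), which binds the EGFR kinase domain and inhibits it, was at 28.5 FPKM in the control, 37.8 FPKM in clone 1 and 57.8 FPKM in clone 2. Its ratio in clone 2 was just under the threshold, at 1.995-fold in FPKM + 1, and just over it, at 2.03-fold, in FPKM without a pseudocount. RNF41, a ubiquitin ligase that lowers ERBB3 protein, was at 5.85, 5.80 and 6.15 FPKM in the control, clone 1 and clone 2. Protein was not measured, and a part of RNF41 in the level of ERBB3 was not tested. In limma, the adjusted p-value of every gene of these lists that passed the filter was 1.00, as for every gene in the fit.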

How the data were processed

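RNA was extracted with TRIzol, and libraries were prepared with the Illumina TruSeq RNA kit and sequenced on an Illumina HiSeq instrument. The authors deposited 1 table of FPKM values for 3 libraries. The submitters' processing notes name Trim Galore 0.3.7, STAR 2.5, Cufflinks 2.2.1, DESeq 1.22.1 and hg19, without their roles; the annotation is not given in the sources used here. DESeq needs counts and was not run. Each clone counted as 1 replicate, and nothing states separate cultures.

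Symbols and exon lengths came from GENCODE release 29, which holds 56996 of 60504 identifiers. Reads were recovered as FPKM times merged exon length times the depth at which low values became whole within 0.02. Among low values, 98.7% to 98.8% came out whole for single-transcript genes and 88.5% to 89.3% for other genes. Genes were kept where the average of the control and the clones' mean reached 1 FPKM. Log2 ratios used a pseudocount of 1 FPKM, and a change was at least 2-fold. limma 3.58.1 (R 4.3.3) was fitted with a trend, with 1 residual degree of freedom per gene. Exact binomial 95% intervals were computed with scipy 1.17.1 in Python 3.11.15. The fold rule and the recovery of depth were tested on simulated data, where the limma fit was run without a pass criterion.

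The 10 genes and the gene lists were chosen with earlier results of these data known. The named genes were these 10, the genes of 4 pathway lists past 2-fold or, with under 2 such genes, the 2 most abundant, the 3 genes nearest in pattern to each gene past 2-fold, the neighbours on chromosome 4, and genes past 2-fold in a later list of other receptor tyrosine kinases; markers illustrate their lists, and 1 planned marker is not reported here. Alternatives were a pseudocount of 0.1 FPKM, median-ratio and TPM scaling, no filter, a filter at 5 FPKM, a threshold of 1.5-fold, omission of each clone and, added after the data were seen, ratios without a pseudocount in which values under 3 reads were set to 3 reads.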

Additional observations from a re-analysis of the deposited data

How the results depend on the processing

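The genes past 2-fold, AREG in clone 2 against the control and AREG and EREG between the clones, were the same under the other pseudocount, scalings and filters. A 1.5-fold threshold gave 2 genes in clone 1 (ERBB3 and EREG), 3 in clone 2 (AREG, EGFR and EREG) and 4 between the clones (AREG, EGFR, ERBB3 and EREG). Of all 11675 genes that passed the filter, 730, 973 and 1444 were past that threshold in the same comparisons. With each clone left out in turn, the count for both clones ranged from 0 to 1, the latter being AREG with clone 2 alone. limma called 240 of 60504 genes without a filter, 0 of them among the 10, and there 33875 genes had the same value in both clones, a variance of 0. It called 0 genes under its other alternatives.

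Over all genes, the number past 2-fold ranged from 83 to 469 in clone 1 (236 as reported), 100 to 526 in clone 2 (241) and 222 to 893 between the clones (489). In both clones it ranged from 6 to 88 (38). The lowest counts came from a mean of at least 5 FPKM, and the highest without a pseudocount, except for both clones, with a pseudocount of 0.1 FPKM. A 1.5-fold threshold gave 730, 973, 1444 and 137. TPM scaling gave 400, 471, 763 and 72. Of the log2 ratios of single genes, 119 stayed within the spread of the clones, 16 of ERBB2 and BTC moved further, and none past 2-fold reversed. No paired analysis was possible because the control has 1 library and its title carries no replicate number. Depth limits EPGN, ERBB4, EGF and the neuregulins, and 1 control library limits every comparison.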

Other observations

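Other receptor tyrosine kinases were examined in a list of 17 genes, written after the files were opened and before the values of these genes were seen. Of these, 10 passed the filter on low values. Between the clones, 3 were at least 2-fold higher in clone 2 and 1 was lower. Of all 11675 genes that passed the filter, 293 were at least 2-fold higher and 196 lower. KIT, the receptor of stem cell factor, was at 9.78 FPKM in the control library, 5.79 FPKM in clone 1 and 15.6 FPKM in clone 2. EPHA2, an ephrin receptor, was at 21.5, 15.5 and 37.5 FPKM in the control, clone 1 and clone 2, the library order of AREG and EREG. DDR1, a collagen receptor, was at 18.6, 19.7 and 43.4 FPKM. EPHB3, an ephrin receptor of intestinal crypts, was the gene lower in clone 2, at 6.51, 7.13 and 2.82 FPKM. In limma, the adjusted p-value of each of the 10 genes against the control was 1.00, as for every gene in the fit.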
